A study of Mus musculus with 6 samples.

Results

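The citrate cycle, the reactions that refill it (anaplerosis) and the enzymes of the malate-aspartate shuttle were followed through 30 genes, taken by name from the 54532 genes of the count table. They are Cs, Idh3a, Idh3b, Idh3g, Ogdh, Dlst, Suclg1, Suclg2, Sucla2, Fh1 and Mdh2 of the cycle, Idh1, Idh2, Mdh1, Got1, Got2, Pcx, Pck2, Me1, Me2, Me3, Pcca, Pccb, Mcee, Glud1, Glul, Gpt, Gpt2, Acly and Acss1. Genes were taken by name and pathway role, and the list was drawn up with earlier results of these data known. All 30 passed the low-count filter, with 102 to 30533 reads per gene and library.

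The RNA came from left ventricles of mice, 3 TG and 3 NTG, all operated by aortic banding (AB), which narrows the aorta and loads the heart with pressure. TG is the genotype HINT2CTG-Myh6Cre, in which a human HINT2 sequence driven by the CAG promoter is switched on in cardiomyocytes by Cre under the Myh6 promoter after tamoxifen at 5 mg/kg per day for 7 days. NTG is labelled C57BL/6J and carries no transgene, and whether NTG mice had tamoxifen is not given in the sources used here, so Cre, tamoxifen and HINT2 cannot be told apart in this design. The mice were male and 8 to 10 weeks old at surgery, tissue was taken 4 weeks after AB, and sham-operated hearts were not analysed here. The comparison asks how overexpressed HINT2, a nucleotide hydrolase of mitochondria, goes with gene expression in the loaded heart.

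As background, the citrate cycle oxidises acetyl-CoA in the mitochondrial matrix, hands electrons to the respiratory chain as NADH and FADH2, and makes GTP or ATP at the succinyl-CoA synthetase step. Because intermediates leak away, carboxylation of pyruvate, propionyl-CoA from odd-chain fatty acids and branched amino acids, and glutamate refill it. The malate-aspartate shuttle carries the reducing equivalents of cytosolic NADH into the matrix with paired malate dehydrogenases and aspartate aminotransferases. The heart depends on this oxidative machinery more than most organs.

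Upstream sequences are shown for Fh1, Idh2 and Pccb, which are among the 5 members whose TG and NTG libraries did not overlap. For the other two, Idh3b and Mdh2, the RefSeq start lies further inside the gene of the count table, 96 and 169 bases from its edge. RefSeq (GRCm38.p6) gave a start for 27 of the 30 members, and the 250 bases before the first listed start are printed 5′ to 3′ on the gene's strand, with motif matches on either strand in capitals. The Fh1 stretch is chr1:175625636-175625885, minus strand, the Idh2 stretch is chr7:80115351-80115600, minus strand, and the Pccb stretch is chr9:101034885-101035134, minus strand. In the count table the Idh2 gene begins 42 bases and the Pccb gene 14 bases further upstream than the RefSeq start, while Fh1 begins at it.
Fh1: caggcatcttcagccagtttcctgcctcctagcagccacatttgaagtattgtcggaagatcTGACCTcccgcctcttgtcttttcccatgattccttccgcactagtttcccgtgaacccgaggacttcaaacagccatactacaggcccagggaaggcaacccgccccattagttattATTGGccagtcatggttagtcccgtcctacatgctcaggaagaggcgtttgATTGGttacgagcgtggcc
Idh2: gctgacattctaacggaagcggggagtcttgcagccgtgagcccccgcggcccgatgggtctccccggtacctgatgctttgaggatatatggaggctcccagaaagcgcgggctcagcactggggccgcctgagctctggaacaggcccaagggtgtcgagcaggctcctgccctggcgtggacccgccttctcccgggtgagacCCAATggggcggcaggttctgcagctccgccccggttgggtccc
Pccb: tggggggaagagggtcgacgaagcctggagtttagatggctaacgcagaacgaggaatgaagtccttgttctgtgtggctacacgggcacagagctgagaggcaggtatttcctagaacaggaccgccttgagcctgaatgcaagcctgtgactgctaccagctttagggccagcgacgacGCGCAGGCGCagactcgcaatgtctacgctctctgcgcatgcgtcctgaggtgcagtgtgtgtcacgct
In Fh1 the capitals mark a nuclear receptor half-site (AGGTCA, read on the other strand) and a pair of CCAAT boxes, in Idh2 a CCAAT box, and in Pccb an NRF1 site. Over windows of 300 bases that also hold the first 50 bases of the transcript, and taking only the first listed start of each gene, CCAAT was found in 15 of 27 members (55.6%), in 38.1% of the 10780 tested genes with a promoter and in 37.9% of all 27025 genes with one. AGGTCA was found in 8 of 27 members (29.6%), against 12.1% of the tested and 16% of all genes. The longer estrogen-related receptor element TNAAGGTCA, which contains it, was found in 0 of 27, against 0.751% and 1.26%. The NRF1 site was found in Sucla2 and Pccb (7.41%), which is below the share of the tested genes (9.93%) and above that of all genes (4.78%). The ETS site CCGGAAGT was found in Dlst (3.7%, against 7.85% of the tested and 4% of all genes), the TATA box TATAAA in Got2 (3.7%, against 7.54% and 14.2%) and the E-box CACGTG in Pcx (3.7%, against 10.1% and 7.24%). These are matches of letters on both strands and describe the windows only. Median GC content was 60.3% in the members and 60.7% in the 10780 tested genes with a promoter.

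The 6 libraries held 14863568 to 17581220 counts on genes, and levels are given as CPM, read counts scaled to a common library size after TMM normalisation. Hint2 (ENSMUSG00000028470, chr4:43654227-43656466, minus strand), the mouse gene, had 12, 545 and 559 counts in NTG 1, NTG 2 and NTG 3 and 793, 828 and 859 counts in TG 1, TG 2 and TG 3. The library labelled NTG 1 thus stood far below the other NTG libraries. Hint2 differed by a log2 fold change of 1.33 (SE 0.86, edgeR adjusted p = 0.433), and by 0.77 (adjusted p = 0.0212) without NTG 1. Reads of the human transgene may or may not have been counted on the mouse gene, so this row checks the labels only in part. Along the leading principal component (52.3% of the variance), NTG 2 was at 55.7 and NTG 3 at 29.3, whereas NTG 1 was at -5.08 and thus closer to TG 2 at -10.7. Counts of genes, pairs without overlap and the log2 fold changes that moved most are therefore also given without NTG 1. NTG 1 was the highest NTG library in 25 of the 30 members, so leaving it out raises most of their fold changes by that choice. The smaller p-values without NTG 1 describe the weight of that library and are no further support for a difference. The 3 libraries of a group are taken as separate hearts, and p-values measure the spread between these samples.

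Of the 30 members, 26 had a higher fitted level in TG and 4 a lower one, where 48.7% of the 14774 genes tested were higher. The median log2 fold change of the members was 0.32, with a range from -0.17 (Me2) to 1.02 (Gpt), against a median of -0.0081 over all genes tested. Without NTG 2 the median of the members was 0.20, and without NTG 1 it was 0.47. By edgeR's quasi-likelihood test, 0 members and 0 of all genes (0%) passed an adjusted p of 0.05 with a log2 fold change over 0.5, and the smallest adjusted p of any gene was 0.196. An unadjusted p under 0.05 was reached by 10 members, all of them higher in TG, while 8.83% of all genes were higher and 9.76% lower at that level. The number was 20 without NTG 1 (13.7% of all genes higher), 5 without NTG 2 (5.08%), 1 without NTG 3 (5.15%), 1 without TG 1 (4.98%), 14 without TG 2 (9.08%) and 2 without TG 3 (5.35%). All TG libraries lay above all NTG libraries in 5 members, Idh3b, Fh1, Mdh2, Idh2 and Pccb, and below them in 0 members, where 11.2% and 12.3% of all genes did so. Without NTG 1 the same held for 21 members above and 1 below, beside 23.4% and 23.6% of all genes, and without TG 2 for 23 and 1, beside 20.2% and 21.2%. DESeq2 passed 2 members, Idh2 (adjusted p = 0.0487) and Pccb (adjusted p = 0.0384), beside 1.54% of all genes higher and 2.39% lower. With NTG 2, NTG 3, TG 1 or TG 3 left out, DESeq2 passed 0 members. Without NTG 1, edgeR passed 6 members, all higher in TG, namely Idh3b, Fh1, Idh2, Pccb, Mcee and Gpt, beside 2.67% of all genes passing as higher. Since the 30 genes overlap in function and share the same 6 hearts, they are not independent observations.

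**Figure D1:**
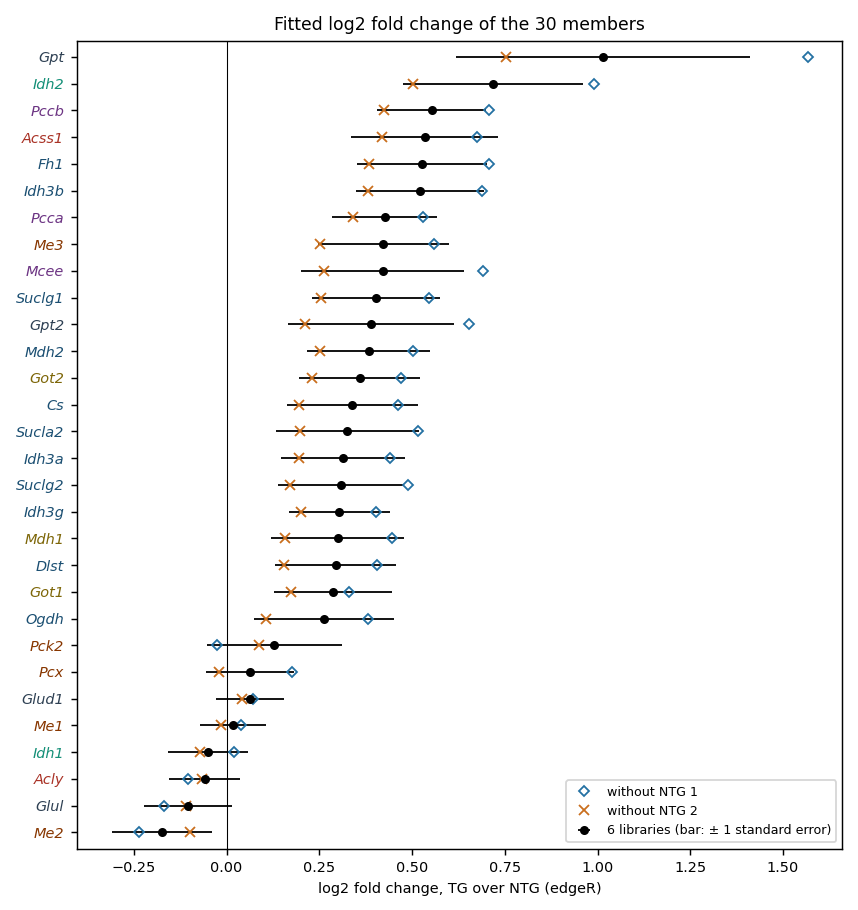
Log2 fold change of TG against NTG for each of the 30 members, on the x axis, as dots with a bar of 1 standard error, and the value without NTG 1 (diamonds) and without NTG 2 (crosses). Gene names are coloured by role. With all 6 libraries the values run from -0.17 for Me2 to 1.02 for Gpt, and 26 of 30 lie above 0.

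The same libraries stood low or high in most of the members. NTG 2 was the lowest of the 6 libraries in 24 members, NTG 1 was the highest NTG library in 25, and NTG 1 exceeded the lowest TG library in 24. Summed over the 30 members, the level was 11322, 7815 and 9930.3 CPM in NTG 1, NTG 2 and NTG 3 and 13356, 10909 and 12823 CPM in TG 1, TG 2 and TG 3, or 9689 ± 1765 CPM in NTG and 12363 ± 1287 CPM in TG (SD, n = 3 each). TG 2 was below NTG 1, so the sums overlapped. The share of counts on genes of the mitochondrial genome, 19.2%, 13.4% and 14.3% in NTG 1, NTG 2 and NTG 3 and 21.5%, 16.0% and 20.3% in TG 1, TG 2 and TG 3, put the 6 libraries in the same order as the sums, and its part in the result was not tested. The SD in NTG was larger than in TG for 22 of the 30 members.

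**Figure D2:**
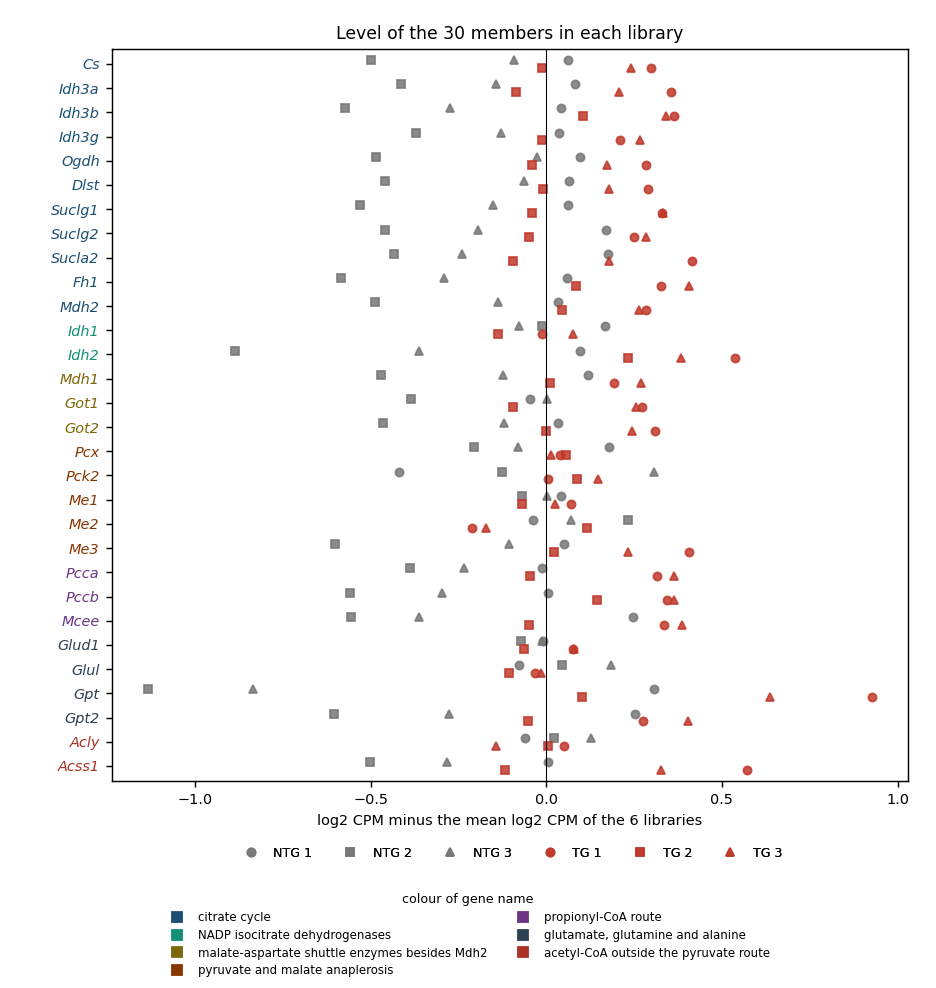
Level of each member in each of the 6 libraries, as log2 CPM minus the mean of the 6 on the x axis, with NTG in grey, TG in red and a marker shape per library. NTG 2 lies furthest left in 24 of 30 genes, and NTG 1 lies above the lowest TG library in 24.

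The cardiomyocyte markers (Myh6, Actc1, Tnnt2, Tnni3, Ryr2, Pln, Myl2, Myl3 and Atp2a2) had sums in that order as well. Their summed level was 44097, 25094 and 35011 CPM in NTG 1, NTG 2 and NTG 3 and 51374, 41938 and 49722 CPM in TG 1, TG 2 and TG 3, and all 9 were higher in TG by fold change, 2 of them without overlap. All 7 fibroblast markers were lower in TG, 5 without overlap, and their sum was 4701 to 10840 CPM in NTG and 2308 to 4007 CPM in TG. Relative to the cardiomyocyte markers of the same library, the members made up 25.7%, 31.1% and 28.4% in NTG 1, NTG 2 and NTG 3 and 26.0%, 26.0% and 25.8% in TG 1, TG 2 and TG 3. Set against these markers, the members of the TG libraries lay at the lower end of the NTG range. Among the markers, Myh6 was at 8005 ± 2811 CPM in NTG and 11788 ± 1607 CPM in TG (SD, n = 3). The study also reports raised αMHC, the product of Myh6, in TG after AB. The markers can thus themselves differ with the condition, and the percent is not a level per cardiomyocyte. In bulk tissue, fewer cells of a type and less RNA per cell cannot be told apart, and the part of cell composition in the values above was not tested. All 6 macrophage and all 5 erythroid markers were also lower in TG by fold change (498 to 920 against 391 to 580 CPM, and 1310 to 2245 against 762 to 908 CPM in sum). Of the endothelial markers 3 of 5 were higher in TG (1393 to 1604 against 1471 to 1616 CPM in sum), and of the smooth muscle markers 3 of 4 (130 to 155 against 202 to 225 CPM). The atrial light chain Myl7 had 286, 3 and 0 counts in NTG 1, NTG 2 and NTG 3 and 22, 135 and 1044 counts in TG 1, TG 2 and TG 3. In the same order, Myl4 had 580, 37 and 37 and then 37, 306 and 1260 counts, and Sln 122, 1 and 1 and then 4, 72 and 401. These atrial genes thus differed among the libraries of both groups, highest in TG 3 and, within NTG, in NTG 1. Whether atrial tissue was part of the ventricle samples was not tested. With Nppa included, the atrial list summed to 821 to 1403 CPM in NTG and 176 to 896 CPM in TG, although 3 of its 4 genes were higher in TG. Nppa alone was at 754 to 1400 CPM in NTG and 172 to 867 CPM in TG. Ventricular stress genes summed to 8248 to 12252 CPM in NTG and 4896 to 10798 CPM in TG. Adipocyte markers were at 0.372 to 2.66 CPM in NTG and 0.577 to 8.40 CPM in TG, with Lep at 0 in all libraries, and the brown adipocyte list at 73.3 to 95.03 and 83.6 to 130 CPM.

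**Figure D3:**
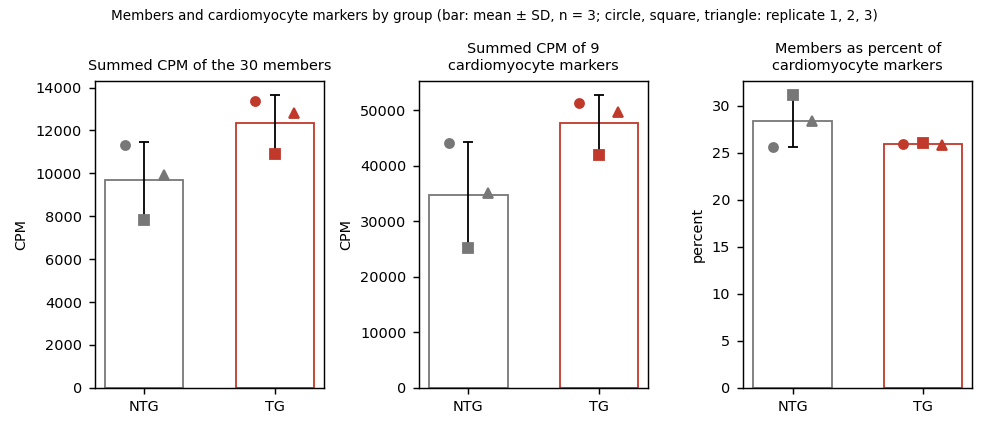
Summed CPM of the 30 members (left), summed CPM of 9 cardiomyocyte markers (middle) and the members as percent of these markers (right), with 1 point per library (circle, square and triangle for replicates 1, 2 and 3), bars at the group mean and lines of 1 SD (n = 3). NTG 2 is lowest in both sums and highest in the percent, at 31.1%.

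The 11 genes of the cycle itself all had fitted levels above NTG, with log2 fold changes from 0.26 to 0.53 around a median of 0.33. Without NTG 2 they ran from 0.11 (Ogdh) to 0.38 (Fh1) around a middle value of 0.20 (Sucla2). Without NTG 1 they ran from 0.38 (Ogdh) to 0.71 (Fh1) around 0.49 (Suclg2). An unadjusted p under 0.05 was reached by 4 of them, Idh3b, Fh1, Suclg1 and Mdh2, beside 8.83% of all genes higher. The number was 10 without NTG 1 (13.7% of all genes), 6 without TG 2 (9.08%), 2 without NTG 2 (5.08%) and 0 without NTG 3, TG 1 or TG 3 (5.15%, 4.98% and 5.35%). In all 11, NTG 2 was the lowest of the 6 libraries and NTG 1 the highest NTG library. Their summed level was 5280 ± 1008 CPM in NTG and 6692 ± 744 CPM in TG. Compared per kilobase over the 6 libraries, Ogdh stood highest in the cycle at 311 CPM per kb, followed by Mdh2 at 232, Cs at 151 and Idh3b at 143, and Suclg2 was lowest at 27.2.

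Idh3b encodes the beta subunit of the NAD-dependent isocitrate dehydrogenase (ENSMUSG00000027406, chr2:130279309-130284547, minus strand). Its level was 489.8, 319.9 and 393 CPM in NTG 1, NTG 2 and NTG 3 and 612, 512 and 603 CPM in TG 1, TG 2 and TG 3. The groups did not touch, with TG 2 the closest TG library to NTG 1. The log2 fold change was 0.52 (SE 0.17, edgeR adjusted p = 0.211) and 0.69 (adjusted p = 0.0446) without NTG 1 and 0.38 (adjusted p = 0.457) without NTG 2. Idh3b overlaps Nop56 on the opposite strand, which held 2604 reads against 47257 on Idh3b, and the strand setting of the counting is not given in the sources used here. The alpha subunit Idh3a was at 379, 269 and 324 CPM in NTG 1, NTG 2 and NTG 3 and 458, 337 and 413 CPM in TG 1, TG 2 and TG 3. The gamma subunit Idh3g was at 251, 189 and 224 CPM in NTG 1, NTG 2 and NTG 3 and 283, 243 and 294 CPM in TG 1, TG 2 and TG 3. In both, NTG 1 lay above TG 2, and the log2 fold changes were 0.31 (SE 0.17) and 0.30 (SE 0.14), or 0.19 and 0.20 without NTG 2, and 0.44 and 0.40 without NTG 1.

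Fh1 encodes fumarase, which hydrates fumarate to malate (ENSMUSG00000026526, chr1:175600374-175625635, minus strand). It was at 303, 194 and 238 CPM in NTG 1, NTG 2 and NTG 3 and 365, 308 and 385 CPM in TG 1, TG 2 and TG 3, so TG 2, the lowest TG heart, lay just above NTG 1. Its log2 fold change was 0.53 (SE 0.18, edgeR adjusted p = 0.211), and 0.71 (adjusted p = 0.0396) without NTG 1 and 0.38 (adjusted p = 0.466) without NTG 2. Mdh2, the mitochondrial malate dehydrogenase that closes the cycle and also serves the shuttle (ENSMUSG00000019179, chr5:135778480-135790398, plus strand), was at 833, 581 and 739.8 CPM in NTG 1, NTG 2 and NTG 3 and 992, 839 and 978 CPM in TG 1, TG 2 and TG 3. NTG 1 and TG 2 were nearly level there, and the log2 fold change was 0.38 (SE 0.17, edgeR adjusted p = 0.265), which was 0.50 without NTG 1 and 0.25 without NTG 2.

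Suclg1, the alpha subunit shared by both succinyl-CoA synthetases, was at 218, 145 and 188 CPM in NTG 1, NTG 2 and NTG 3 and 263, 203 and 263 CPM in TG 1, TG 2 and TG 3, and TG 2 lay inside the NTG range, with a log2 fold change of 0.40 (SE 0.17, edgeR adjusted p = 0.265), which was 0.54 without NTG 1 and 0.26 without NTG 2. The GTP-specific beta subunit Suclg2 was at 113 ± 24.9 CPM in NTG and 139 ± 17.1 CPM in TG, and the ATP-specific Sucla2 at 344 ± 76.6 CPM in NTG and 432 ± 75.4 CPM in TG (SD, n = 3). Citrate synthase, Cs, which starts the cycle, was at 772 ± 147.8 CPM in NTG and 977 ± 108 CPM in TG. Ogdh, the first component of 2-oxoglutarate dehydrogenase, was at 1542 ± 309 CPM in NTG and 1849.9 ± 207 CPM in TG, and its second component Dlst at 416 ± 75.3 CPM in NTG and 510.2 ± 52.5 CPM in TG. The log2 fold changes of these 5 genes were 0.31 (SE 0.17), 0.33 (SE 0.19), 0.34 (SE 0.18), 0.26 (SE 0.19) and 0.29 (SE 0.16), in the order named, all with adjusted p between 0.333 and 0.467 in edgeR. Without NTG 2 they were 0.17, 0.20, 0.19, 0.11 and 0.15, and without NTG 1 0.49, 0.51, 0.46, 0.38 and 0.41. Sucla2 was at 0.19 without TG 1. In all 5, the groups overlapped.

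Isocitrate is also oxidised by NADP-dependent enzymes outside the cycle proper, Idh2 in mitochondria and Idh1 in the cytosol, and both make NADPH. Idh2 (ENSMUSG00000030541, chr7:80094846-80115392, minus strand) was at 1261, 638 and 916 CPM in NTG 1, NTG 2 and NTG 3 and 1712, 1385 and 1539 CPM in TG 1, TG 2 and TG 3. TG libraries all lay above NTG 1, and NTG 2 was the lowest by far. Its log2 fold change was 0.72 (SE 0.24, edgeR adjusted p = 0.213), and 0.99 (adjusted p = 0.0348) without NTG 1 and 0.50 (adjusted p = 0.443) without NTG 2. Idh1 was at 35.4, 31.3 and 29.9 CPM in NTG 1, NTG 2 and NTG 3 and 31.3, 28.7 and 33.3 CPM in TG 1, TG 2 and TG 3, with both groups spread over the same range and a log2 fold change of -0.05 (SE 0.11, edgeR adjusted p = 0.823). Per kilobase, Idh2 stood at 479.8 CPM per kb over the 6 libraries and Idh1 at 11.4.

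The shuttle enzymes besides Mdh2 had log2 fold changes between 0.29 and 0.36, and 0 of 3 reached an unadjusted p of 0.05, beside 8.83% of all genes higher. Without NTG 2 these were 0.16 for Mdh1, 0.17 for Got1 and 0.23 for Got2, and without NTG 1 0.45, 0.33 and 0.47. Mdh1, the cytosolic malate dehydrogenase, was at 1363, 905 and 1152 CPM in NTG 1, NTG 2 and NTG 3 and 1434, 1263 and 1513 CPM in TG 1, TG 2 and TG 3, with NTG 1 above TG 2. Per kilobase it was the highest member in NTG, at 444 CPM per kb against 363 for Idh2, while in TG Idh2 was higher, at 597 against 547. The cytosolic aspartate aminotransferase Got1 was at 475 ± 66.7 CPM in NTG and 579 ± 79.6 CPM in TG, a log2 fold change of 0.29 (SE 0.16). The mitochondrial form Got2 was at 525 ± 89.8 CPM in NTG and 673 ± 74.4 CPM in TG, a log2 fold change of 0.36 (SE 0.16). A processed pseudogene of Got2, Got2-ps1, held 190 reads against 58113 on Got2.

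Enzymes that link pyruvate, phosphoenolpyruvate and malate with the cycle had the smallest median log2 fold change of the role groups. It was 0.064 over 5 genes, of which Me3 alone reached an unadjusted p under 0.05, beside 8.83% of all genes higher. Without NTG 2 the middle value of these genes was -0.014 (Me1), and without NTG 1 it was 0.040 (Me1). Pyruvate carboxylase Pcx was at 28.0 ± 3.91 CPM in NTG and 29.3 ± 0.428 CPM in TG, and mitochondrial phosphoenolpyruvate carboxykinase Pck2 at 16.7 ± 4.29 CPM in NTG and 18.3 ± 0.917 CPM in TG. The mitochondrial NADP-dependent malic enzyme Me3 was at 50.4, 32.1 and 45.2 CPM in NTG 1, NTG 2 and NTG 3 and 64.5, 49.4 and 57.2 CPM in TG 1, TG 2 and TG 3, with TG 2 below NTG 1 and a log2 fold change of 0.42 (SE 0.18, edgeR adjusted p = 0.257), which was 0.56 without NTG 1 and 0.25 without NTG 2. The cytosolic form Me1 was at 125, 116 and 121 CPM in NTG 1, NTG 2 and NTG 3 and 127, 115 and 123 CPM in TG 1, TG 2 and TG 3, a spread of few CPM around the same level, with a log2 fold change of 0.017 (SE 0.088). Me2, the mitochondrial NAD-dependent form, was at 17.1, 20.6 and 18.4 CPM in NTG 1, NTG 2 and NTG 3 and 15.1, 19.0 and 15.6 CPM in TG 1, TG 2 and TG 3 and had the lowest log2 fold change of the members, -0.17 (SE 0.14, edgeR adjusted p = 0.504), which was -0.24 without NTG 1, -0.10 without NTG 2 and -0.28 without TG 2. Pcx and Pck2 had log2 fold changes of 0.064 (SE 0.12) and 0.13 (SE 0.18), and both groups overlapped in all 5 genes.

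The propionyl-CoA route, which turns propionyl-CoA into succinyl-CoA, had the smallest unadjusted p of the members. Pccb, the beta subunit of propionyl-CoA carboxylase (ENSMUSG00000032527, chr9:100982032-101034898, minus strand), was at 78.2, 52.9 and 63.5 CPM in NTG 1, NTG 2 and NTG 3 and 99.0, 86.1 and 100.3 CPM in TG 1, TG 2 and TG 3. TG 2 at the bottom of its group exceeded NTG 1 at the top of the other. The log2 fold change was 0.55 (SE 0.15, edgeR adjusted p = 0.196), with an unadjusted p of 0.00531,, 0.71 (adjusted p = 0.0258) without NTG 1 and 0.42 (adjusted p = 0.428) without NTG 2. The alpha subunit Pcca was at 52.8, 40.7 and 45.3 CPM in NTG 1, NTG 2 and NTG 3 and 66.3, 51.6 and 68.6 CPM in TG 1, TG 2 and TG 3, with TG 2 just below NTG 1 and a log2 fold change of 0.43 (SE 0.14, edgeR adjusted p = 0.211), which was 0.53 without NTG 1 and 0.34 without NTG 2. Pcca overlaps Ggact on the opposite strand, which held 700 reads against 5260. Mcee, the epimerase that acts next, was at 32.8 ± 9.99 CPM in NTG and 43.9 ± 6.89 CPM in TG, and its log2 fold change of 0.42 (SE 0.22, edgeR adjusted p = 0.338) was 0.69 (adjusted p = 0.0431) without NTG 1 and 0.26 (adjusted p = 0.670) without NTG 2.

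Amino acid entry was uneven. Gpt, the cytosolic alanine aminotransferase that makes pyruvate and glutamate from alanine (ENSMUSG00000022546, chr15:76695716-76699686, plus strand), had the largest fold change of the 30, at a low level. It was at 14.7, 5.42 and 6.65 CPM in NTG 1, NTG 2 and NTG 3 and 22.6, 12.7 and 18.5 CPM in TG 1, TG 2 and TG 3, from 102 to 313 reads, and NTG 1 lay above TG 2. The log2 fold change was 1.02 (SE 0.40, edgeR adjusted p = 0.243) and 1.57 (adjusted p = 0.0258) without NTG 1 and 0.75 (adjusted p = 0.546) without NTG 2. Its mitochondrial counterpart Gpt2 was at 32.4, 17.9 and 22.4 CPM in NTG 1, NTG 2 and NTG 3 and 33.0, 26.3 and 36.0 CPM in TG 1, TG 2 and TG 3, with NTG 1 above TG 2 and a log2 fold change of 0.39 (SE 0.22), which was 0.65 without NTG 1 and 0.21 without NTG 2. Glutamate dehydrogenase Glud1, which yields 2-oxoglutarate, was at 172 ± 4.25 CPM in NTG and 179.8 ± 9.92 CPM in TG, with a log2 fold change of 0.063 (SE 0.092) that ranged from 0.038 without TG 3 to 0.11 without TG 2. Glutamine synthetase Glul was at 427, 465 and 513 CPM in NTG 1, NTG 2 and NTG 3 and 441, 419.5 and 447 CPM in TG 1, TG 2 and TG 3, where NTG 3 was highest and the groups overlapped, with a log2 fold change of -0.10 (SE 0.12), which was -0.17 without NTG 1 and -0.035 without NTG 3.

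For acetyl-CoA made outside the pyruvate route, Acss1, the mitochondrial acetyl-CoA synthetase, was at 209.6, 147.6 and 172 CPM in NTG 1, NTG 2 and NTG 3 and 311, 193 and 262 CPM in TG 1, TG 2 and TG 3. TG 2 lay inside the NTG range, and the log2 fold change was 0.53 (SE 0.20, edgeR adjusted p = 0.226), which was 0.68 without NTG 1 and 0.42 without NTG 2. Acly, the ATP citrate lyase that splits citrate in the cytosol, was at 72.6, 76.8 and 82.6 CPM in NTG 1, NTG 2 and NTG 3 and 78.4, 75.8 and 68.5 CPM in TG 1, TG 2 and TG 3, with both groups overlapping and a log2 fold change of -0.059 (SE 0.095), which was -0.10 without NTG 1, -0.10 without TG 1, -0.011 without NTG 3 and -0.0051 without TG 3.

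Ratios of enzymes within a library need no scaling between libraries. Compared were 15 pairs, of isoenzymes, of subunits or components of a complex, and of the glutamate enzymes Glul and Glud1. An exact two-sided permutation test was used, in which 3 against 3 cannot go below p = 0.1. The groups did not overlap in 6 of the 15 pairs (40%), against 120 of the 435 pairs that the 30 members can form (27.6%), and each of the 6 had the smallest exact p, 0.1, adjusted over the pairs to 0.25. Without NTG 1 they did not overlap in 10 of the 15 pairs, beside 69% of the 435, without TG 2 in 9 (55.4%), without NTG 3 in 8 (34.5%), and without NTG 2, TG 1 or TG 3 in 7 each (31.3%, 32.6% and 32%). Whether the listed pairs separated more often than any 2 members was not tested. The ratio of Idh1 to Idh2 reads was 0.0281, 0.0491 and 0.0327 in NTG 1, NTG 2 and NTG 3, against 0.0183, 0.0208 and 0.0216 in TG 1, TG 2 and TG 3, a log2 difference of -0.82. The ratio of Gpt to Gpt2 was 0.453, 0.304 and 0.297 in NTG 1, NTG 2 and NTG 3, against 0.685, 0.485 and 0.513 in TG 1, TG 2 and TG 3, a log2 difference of 0.69. These shifts restate the fold changes of the single genes, which were larger for Idh2 than for Idh1 and for Gpt than for Gpt2. Without NTG 1 the log2 differences were -0.99 and 0.88.

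Among the NAD-dependent isocitrate dehydrogenase subunits, Idh3a to Idh3b was 0.774, 0.841 and 0.825 in NTG 1, NTG 2 and NTG 3, against 0.748, 0.659 and 0.686 in TG 1, TG 2 and TG 3 (log2 difference -0.22), and Idh3b to Idh3g was 1.95, 1.69 and 1.76 in NTG 1, NTG 2 and NTG 3, against 2.16, 2.11 and 2.05 in TG 1, TG 2 and TG 3 (log2 difference 0.23). Idh3a to Idh3g differed by 0.0076 with overlapping groups (exact p = 1), while both ratios that hold Idh3b were apart. The ratio of Me1 to Me3 was 2.47, 3.60 and 2.69 in NTG 1, NTG 2 and NTG 3, against 1.97, 2.34 and 2.15 in TG 1, TG 2 and TG 3 (log2 difference -0.42). Mdh1 to Mdh2 was 1.64, 1.56 and 1.56 in NTG 1, NTG 2 and NTG 3, against 1.45, 1.504 and 1.55 in TG 1, TG 2 and TG 3, a log2 difference of only -0.079. The other 9 pairs overlapped, with log2 differences from -0.62 for Me2 to Me3, the widest, to 0.089 for Suclg1 to Suclg2. Ogdh to Dlst stayed between 3.58 and 3.75 in all 6 libraries.

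**Figure D4:**
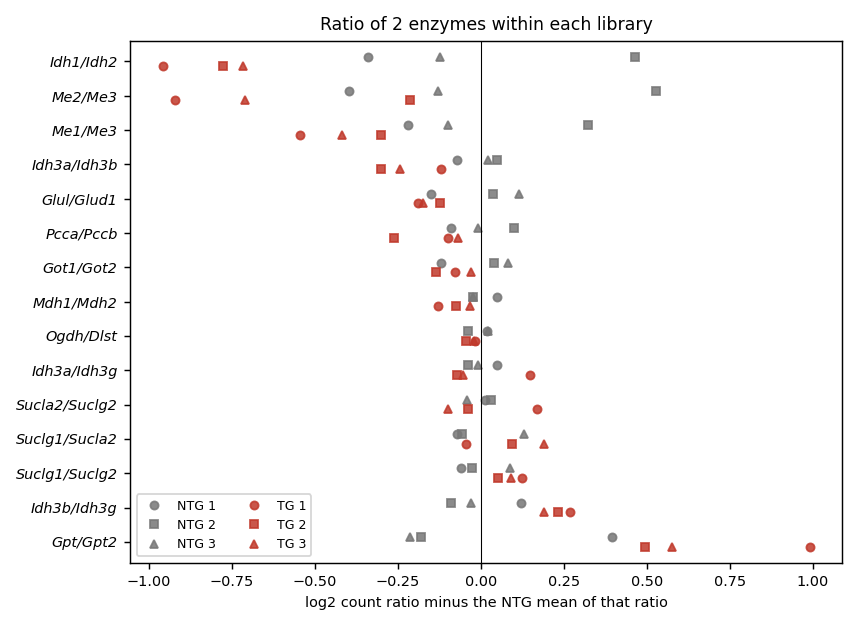
Log2 count ratio of 15 enzyme pairs in each library, minus the NTG mean of that ratio, on the x axis, with NTG in grey and TG in red. The groups are apart in 6 pairs, with the widest gap between means for Idh1 to Idh2 at -0.82.

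Of 32 further genes of the pathway in the table, which were aconitases, complex II subunits, pyruvate dehydrogenase components, carriers and related enzymes, 30 were tested, and 26 had a higher fitted level in TG. Their median log2 fold change was 0.31, and 10 reached an unadjusted p under 0.05 as higher and 1 as lower, beside 8.83% and 9.76% of all genes. With 1 library left out the number higher ranged from 3 without TG 1 (4.98% of all genes) to 21 without NTG 1 (13.7%). EdgeR passed 0 of them, and 3 without NTG 1, where 2.67% of all genes passed as higher. DESeq2 passed Ogdhl, Adhfe1 and Sdhb, beside 1.54% of all genes higher. In DESeq2 the number was 12 without NTG 1 (5.92%), 4 without TG 2 (1.93%), 1 without NTG 2 (0.313%), 1 without NTG 3 (0.264%) and 0 without TG 1 (0.679%) or TG 3 (0.193%). Ogdhl, a relative of Ogdh, was at 74.6, 56.7 and 71.4 CPM in NTG 1, NTG 2 and NTG 3 and 129.9, 92.7 and 126 CPM in TG 1, TG 2 and TG 3, and its groups did not overlap, with a log2 fold change of 0.78 (SE 0.16, edgeR adjusted p = 0.196). Adhfe1, a hydroxyacid-oxoacid transhydrogenase, was at 29.4, 17.0 and 20.5 CPM in NTG 1, NTG 2 and NTG 3 and 40.7, 31.8 and 44.5 CPM in TG 1, TG 2 and TG 3, also without overlap, with a log2 fold change of 0.81 (SE 0.22, edgeR adjusted p = 0.196). The citrate carrier Slc25a1, which exports citrate to the cytosol, was the one that was lower at that level, at 12.2, 18.2 and 12.8 CPM in NTG 1, NTG 2 and NTG 3 and 9.16, 10.6 and 9.32 CPM in TG 1, TG 2 and TG 3, with a log2 fold change of -0.58 (SE 0.18, edgeR adjusted p = 0.204). The complex II subunit Sdhb, an iron-sulfur protein that passes electrons from succinate to ubiquinone, was at 548, 371 and 437 CPM in NTG 1, NTG 2 and NTG 3 and 716, 573 and 724 CPM in TG 1, TG 2 and TG 3, without overlap and with a log2 fold change of 0.57 (SE 0.18, edgeR adjusted p = 0.204).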

How the data were processed

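RNA-seq was done on 6 left ventricles, 3 TG and 3 NTG. The authors mapped the reads and counted them per gene with featureCounts, and the deposited values are raw counts, 1 column per library, with gene length in bases as the authors gave it. The submitters' notes name HISAT2, DESeq2 and a human genome build, although the identifiers are mouse, and 53585 of 54532 genes matched GENCODE M21 (GRCm38) coordinates, including 29 of the 30 members. The strand setting and the handling of multi-mapped reads are not given in the sources used here.

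The fits were made with edgeR 4.0.16 in R 4.3.3 (TMM, filterByExpr, robust quasi-likelihood test), with Benjamini-Hochberg adjustment over 14774 genes. Calls required adjusted p below 0.05 together with a log2 fold change above 0.5. SE is the log2 fold change divided by the root of F. Ratios of pairs used counts plus 0.5. DESeq2 1.42.0, limma 3.58.1, other scalings and filters and left-out libraries were alternatives. The tests were also tried on simulated counts, with 100 genes changed by a log2 fold change of 1 in size and 100 by 2. EdgeR recovered 72% and 93% of these with 20 false calls, DESeq2 79% and 92% with 49, and limma 64% and 87% with 17. 0 columns of sample values were left unmatched. Members, lists and tests were chosen with earlier results of these data known. Per-library values were given for the 10 members of smallest p, the 3 largest and 3 smallest fold changes and pairs without overlap, and for further pathway genes by smallest p. Marker lists were those for cardiomyocyte, atrial, ventricular stress, fibroblast, endothelial, smooth muscle, macrophage, erythroid, adipocyte and brown adipocyte. Total counts of 14863568 to 17581220 set the counting precision, which weighs most on Gpt.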

Additional observations from a re-analysis of the deposited data

How the results depend on the processing

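The median log2 fold change of the members stayed above 0 in all alternatives, from 0.197 to 0.466 with 1 library left out in edgeR and 0.236 with library size alone, where the median of all genes was -0.093. That scaling split the genes at an unadjusted p under 0.05 into 914 higher and 1842 lower, against 1305 and 1442, and gave log2 fold changes of -0.015 for Pcx, -0.068 for Me1 and -0.022 for Glud1. Genes called numbered 232 without a low-count filter and 581 with DESeq2, and members called 1 and 2, beside 0.432% and 1.54% of all genes called as higher.

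With 1 library left out in edgeR, genes called ranged from 0 to 836, members called from 0 to 6 and members at an unadjusted p under 0.05, 10 with all libraries, from 1 to 20, beside 4.98% to 13.7% of all genes higher at that level. The upper ends came without NTG 1, 5 members reached that level without NTG 2, 1 without NTG 3, 1 without TG 1, 14 without TG 2 and 2 without TG 3. In DESeq2, genes called were 1773 without NTG 1, 126 without NTG 2, 168 without NTG 3, 182 without TG 1, 778 without TG 2 and 99 without TG 3. Members called were 13 without NTG 1, 3 without TG 2 and 0 without any other library there, beside 5.92% and 1.93% of all genes called as higher, and members at an unadjusted p under 0.05 were 21, 5, 6, 4, 17 and 6 in that order of libraries, beside 13.4%, 4.88%, 5.46%, 4.71%, 8.74% and 5.06% of all genes higher. Fold changes near 0 turned in sign when 1 library was left out, within ranges of -0.10 to 0.021 for Idh1, -0.025 to 0.34 for Pck2, -0.020 to 0.18 for Pcx and -0.017 to 0.055 for Me1. The same held for the log2 ratios of Idh3a to Idh3g (-0.063 to 0.047) and Sucla2 to Suclg2 (-0.070 to 0.065). In DESeq2 the turned values were 0.028 and 0.015 for Idh1, -0.018 for Pck2, -0.016 for Pcx, -0.011 and -0.012 for Me1 and 0.0012 for Acly. The cause was not tested.

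Replicate numbers are shared between the groups. Same-numbered libraries deviated together with r of 0.081, 0.17 and -0.25, and not every library correlated best with its own number. With 3 libraries per group these correlations cannot decide whether the numbers pair the hearts, and the main fit holds no block. With the replicate block, 231 genes were called and 20 members reached an unadjusted p under 0.05, beside 11.2% of all genes higher. With the block and a length offset these were 270 genes and 21 members (11.3% of all genes higher), and 1 member was called, beside 0.717% of all genes called as higher.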
